A study of Mus musculus with 17 samples.

Results

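Gas5 and 9 other mouse genes named as small nucleolar RNA (snoRNA) host genes (Snhg1, Snhg3, Snhg4, Snhg5, Snhg6, Snhg7, Snhg8, Snhg11 and Snhg12) were examined in single 2-cell embryos, to ask whether low values of 1 Gas5 row of the array went with low values of the other Gas5 rows or of other host genes. Members were taken as the rows (probe sets) whose platform annotation gave one of these 10 symbols. Of 28815 rows, 7 carried a member symbol alone, and 2 carried a member symbol together with that of a snoRNA and are given apart. Gas5 had 4 rows, Snhg11 had 2 and Snhg5 had 1. Snhg7 shared its row with Snora43, and Snhg8 shared its row with Snora24. No row was named for Snhg1, Snhg3, Snhg4, Snhg6 or Snhg12, so 5 of the 10 genes were measured. Gas5 was included because of its values in the embryos described here, so its differences between PJ34 and control embryos are given as a description, and the calls printed for it in single embryos restate that choice and support nothing.

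The embryos came from natural matings of wild-type males and untreated wild-type females of 1 inbred strain, 129SVE, and each embryo was the product of 1 sperm. The males had been injected daily for 6 weeks with PJ34, an inhibitor of the enzymes PARP1 and PARP2 that make poly(ADP-ribose), or with saline (the labels call the control males both saline-treated and untreated). There were 10 PJ34 embryos, 4 of sire MTM11, 4 of sire MTM13 and 2 of sire MTM14, and 7 control embryos, 1 of sire A, 3 of sire B and 3 of sire D. Littermates share their sire, so they are no fully independent samples, and in an amplified single embryo a lower level per cell and a smaller yield of that RNA cannot be told apart.

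Gas5 (growth arrest specific 5) makes a long noncoding RNA that accumulates in cells that stop growing. Host genes of this kind carry snoRNAs in their introns, which are released after splicing. Box C/D snoRNAs guide the methylation of ribosomal RNA riboses and box H/ACA snoRNAs guide pseudouridine formation, while the spliced host RNA of Gas5 is translated and degraded by nonsense-mediated decay. Transcription of such genes typically starts at a C followed by a run of pyrimidines, the 5′ terminal oligopyrimidine (TOP) start shared with ribosomal protein genes, through which growth signals control the translation of the spliced RNA.

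The start sites of the 5 measured genes are shown because this element is the sequence feature known to be shared by host genes. Each line holds the 20 bases before and the 20 bases from the annotated start, on the transcribed strand, 5′ to 3′, from RefSeq on GRCm38.p6, and capitals mark the run of C and T that begins at the first transcribed base. Gas5 had a pair of annotated starts.
Gas5, upstream start, chr1:161034581-161034620, plus strand: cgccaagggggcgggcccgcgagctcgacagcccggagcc
Gas5, downstream start, chr1:161035146-161035185, plus strand: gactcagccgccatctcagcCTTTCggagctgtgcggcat
Snhg7, chr2:26640225-26640264, minus strand: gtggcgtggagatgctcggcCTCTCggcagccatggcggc
Snhg8, chr3:123508317-123508356, minus strand: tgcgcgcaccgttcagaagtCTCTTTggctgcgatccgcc
Snhg5, chr9:88522878-88522917, minus strand: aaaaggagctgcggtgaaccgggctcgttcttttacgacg
Snhg11, chr2:158375693-158375732, plus strand: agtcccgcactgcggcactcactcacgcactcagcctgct
A start with C at the first base and at least 5 C or T in a row counted from it, read on the transcribed strand only, was found for Gas5 (downstream start), Snhg7 and Snhg8. These were 3 of the 8 member genes looked up, where 3.01% of 27025 genes had such a start. Among 70 windows of ribosomal protein genes the share was 18.6%, where 2.51% of all windows had such a start. Most annotated starts of ribosomal protein genes thus did not meet this definition. An annotated start that does not meet it therefore does not show that the gene lacks the element. The annotated starts of Snhg5 and Snhg11 did not hold these letters at the first base. Which stretch of a gene each array row covers is not given in the annotation used here, so no row can be tied to one of these starts. For the same reason it is not known whether Gas5 rows 2, 3 and 4 measured the spliced host RNA or snoRNA sequence of its introns, and they are called rows of Gas5 only because the annotation gives that symbol.

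The array medians over all rows ran from 6.12 to 6.23, which the quantile normalization of the arrays makes nearly equal in advance. Pair correlations of the embryos ran from 0.941 to 0.959 across genes. The 2-cell label was checked against marker lists. The mean over 25 rows of maternal transcripts ran from 9.32 to 9.53 on the log2 scale in control embryos and from 9.28 to 9.55 in PJ34 embryos, and that over 22 rows of genome activation genes from 8.95 to 9.24 and from 8.63 to 9.29. Of these 22 rows, 6 had a lower PJ34 mean with an unadjusted p under 0.05 (3.93% of all rows with 1 symbol did), among them Hspa8, Nop56 and Dppa4, none had a higher one, and none passed after adjustment (limma). The genome activation mean was lowest in MTM13-4 (8.63) and MTM14-2 (8.85), where Gas5 row 3 was at 7.41 and 7.05, and highest in MTM13-1 (9.29), where it was at 7.86; MTM11-2, with row 3 at 3.85, had 9.19. The part of this list in the values of Gas5 was not tested. Markers of cumulus cells, which surround the egg, averaged 5.58 to 5.77 and 5.51 to 5.74 over 16 rows, and markers of oviduct and blood 5.90 to 6.11 and 5.88 to 6.21 over 12 rows. At an unadjusted p under 0.05 (limma), 2 rows of maternal transcripts had a higher and 2 a lower PJ34 mean. For cumulus cells these counts were 1 and 1, and for oviduct and blood 0 and 1. Of all rows with 1 symbol, 1.96% were higher and 3.93% lower. The part of other cells in the results below was not tested.

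The 4 Gas5 rows varied over unlike ranges. Row 1, which the annotation tied to several Gas5 transcript accessions, was nearly level in all embryos, whereas rows 2, 3 and 4, each tied to a single Gas5 accession, spread over ranges seen in few rows of the array. Values are log2 RMA intensities as deposited, on which a difference of 1 is a doubling.

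Gas5 row 3 stood in the control embryos at 10.56 for sire A, at 10.32, 11.00 and 11.47 for sire B, and at 11.48, 11.95 and 12.14 for sire D. In PJ34 embryos it stood at 10.60, 3.85, 9.25 and 11.37 for sire MTM11, at 7.86, 11.03, 6.58 and 7.41 for sire MTM13, and at 9.80 and 7.05 for sire MTM14. The 7 control embryos lay within 1.82 log2 units of each other and the 10 PJ34 embryos within 7.53. PJ34 embryos were found at control levels as well as far below them: 3 lay within the control range and 7 below the lowest control embryo, with both kinds among the offspring of MTM11 and of MTM13. The mean was 11.27 ± 0.68 (SD, n = 7) in control and 8.48 ± 2.37 (SD, n = 10) in PJ34 embryos.

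Gas5 row 2 showed wide spread in the control embryos themselves. Its values were 10.78 for sire A, 9.66, 3.79 and 7.50 for sire B, and 8.25, 9.55 and 4.79 for sire D. PJ34 embryos were at 4.03, 3.91, 8.59 and 3.75 for MTM11, at 5.69, 3.86, 3.67 and 4.14 for MTM13, and at 3.97 and 5.12 for MTM14. The tenth percentile of the values of all rows with 1 symbol was 4.42, which is used below as the lower end of the table, and 7 of the 10 PJ34 embryos but also 1 of the 7 control embryos, B-2, lay under it. The groups overlapped, since only 2 PJ34 embryos fell below the lowest control embryo, although 9 fell below the control mean of 7.76 ± 2.61 (SD, n = 7; PJ34 mean 4.67 ± 1.52, SD, n = 10). Embryo B-2, which had the lowest control value of row 2, was at 11.00 for row 3.

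Gas5 row 4 varied over 4.54 log2 units with no such difference between the groups. Control embryos had 7.69 (A), 5.64, 7.58 and 6.22 (B), and 7.70, 4.03 and 3.79 (D). PJ34 embryos had 7.94, 6.17, 5.45 and 4.01 (MTM11), 6.25, 7.89, 7.83 and 8.33 (MTM13), and 4.02 and 6.96 (MTM14). Both groups held 2 embryos under 4.42, and the means were 6.09 ± 1.69 (SD, n = 7) and 6.48 ± 1.60 (SD, n = 10). In D-2 and D-3, the control embryos with the lowest row 4 values, row 3 had its highest values of all embryos.

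Gas5 row 1 lay between 12.11 and 12.31 (median 12.27) in the control embryos and between 11.94 and 12.33 (median 12.08) in the PJ34 embryos. Its whole range over 17 embryos was 0.39, or 1.31-fold. The means were 12.24 ± 0.07 (SD, n = 7) and 12.11 ± 0.13 (SD, n = 10), and 6 PJ34 embryos lay below the lowest control embryo. In MTM11-2, the embryo in which row 3 was lowest at 3.85, row 1 was at 12.11, and in MTM13-3, with row 3 at 6.58, row 1 was at 12.22.

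**Figure D1:**
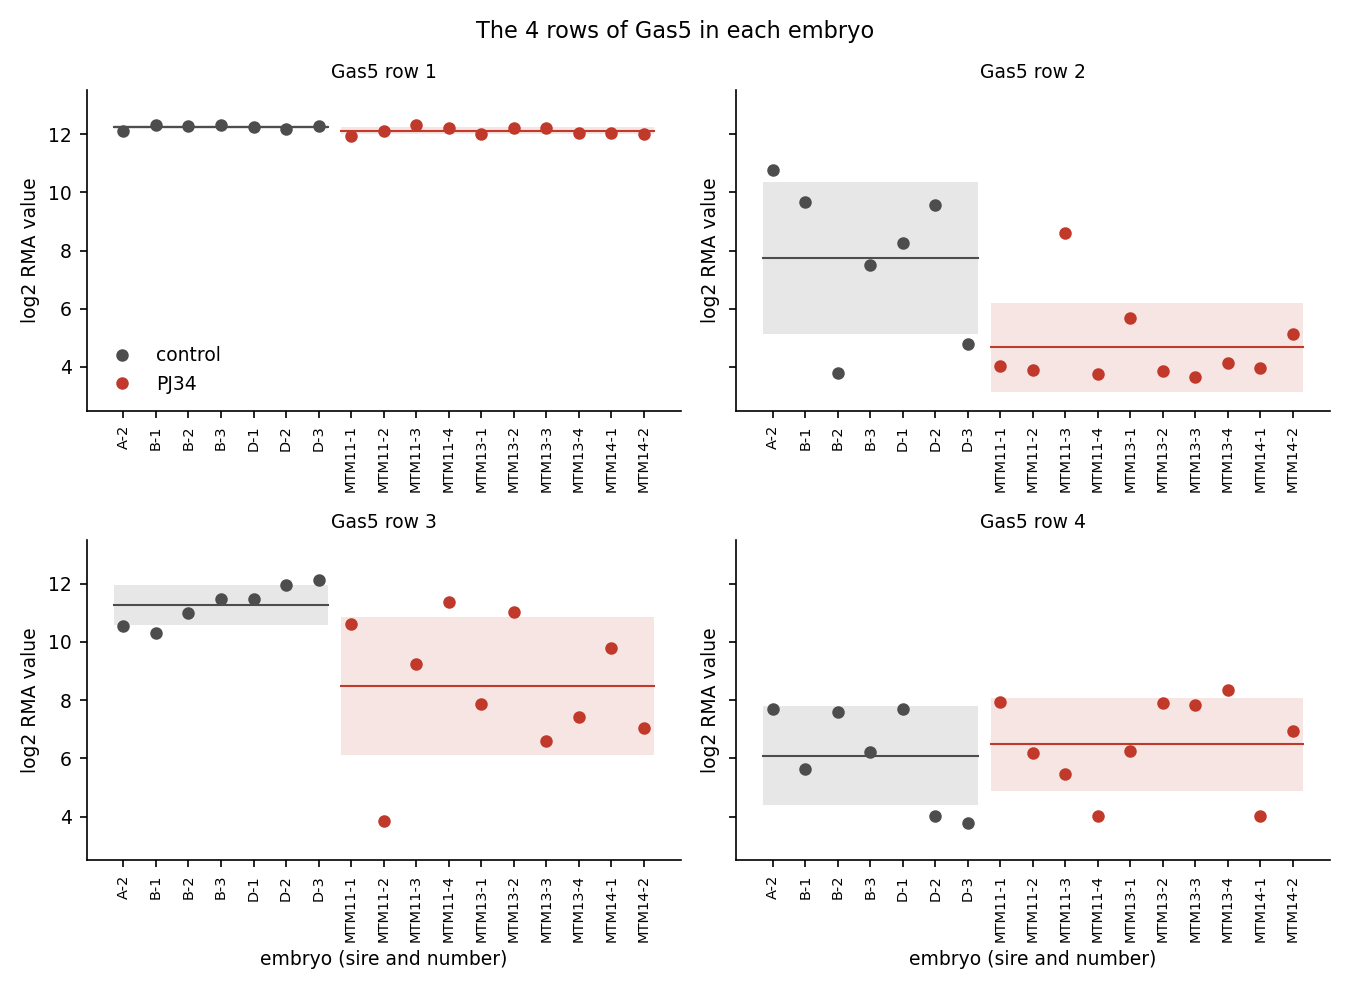
Log2 RMA value (vertical axis) of the 4 Gas5 rows in each of 17 embryos (horizontal axis, named by sire and number); points are single embryos, lines are group means and bands are 1 SD. Row 1 stays between 11.94 and 12.33 in every embryo, while row 3 reaches down to 3.85 in PJ34 embryos and rows 2 and 4 have low embryos in both groups.

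The log2 difference of the PJ34 mean from the control mean was -0.125 for row 1, -3.08 for row 2, -2.79 for row 3 and 0.39 for row 4. In rows 1, 2 and 3, 9 PJ34 embryos each lay below the control mean, and in row 4, 3 did. These values and the 4 differences are a description. By family, the row 3 mean was 8.77 for MTM11, 8.22 for MTM13 and 8.43 for MTM14. The family means were thus close to each other, while the single embryos of MTM11 ran from 3.85 to 11.37. For row 2 the family means were 5.07, 4.34 and 4.54. For row 4 the family differences from the controls had unlike signs, -0.20 for MTM11, 1.48 for MTM13 and -0.60 for MTM14.

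Each PJ34 embryo was also set against the 7 control embryos with the spread taken from the control embryos alone (limma, adjusted p under 0.1 over all rows with 1 symbol). Gas5 row 3 was called lower in 5 of 10 embryos, MTM11-2, MTM13-1, MTM13-3, MTM13-4 and MTM14-2, and in none of the 7 control embryos set against the other 6. Over all rows, 0.101% of comparisons were called lower and 0.48% higher in PJ34 embryos, and 0.04% and 0.357% in control embryos. Because Gas5 was chosen from these comparisons, its calls only describe that choice, and nothing is read from them or from their number against these shares. The called embryo nearest to the threshold in level, MTM13-1, was 3.42 log2 units under the control mean, and the nearest uncalled one, MTM11-3, 2.02 under it. Among rows with 1 symbol, 0.799% were called lower in at least 1 PJ34 embryo and 0.00459% in 5 or more, and Gas5 row 3, by the same choice, was of the latter kind. With the spread pooled over control embryos and PJ34 families no embryo was called, and without control embryo B-2, B-3, D-1 or D-2, one at a time, 2 were.

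The other Gas5 rows were called in no embryo of either group, and neither was a row of Snhg5, Snhg7, Snhg8 or Snhg11. In MTM13-3, with row 3 at 6.58, row 2 stood at 3.67 and row 4 at 7.83, and in MTM13-4, with row 3 at 7.41, row 2 stood at 4.14 and row 4 at 8.33. In MTM11-4, whose row 3 was at 11.37 and thus at control level, row 2 was at 3.75 and row 4 at 4.01. Row 4 was at 4.02 in MTM14-1, whose row 3 of 9.80 lay below every control embryo. Low values of row 3 were therefore found beside low, middle and high values of row 4, and low values of row 2 beside high values of row 3. In the PJ34 embryos called lower for row 3, row 2 ran from 3.67 to 5.69, below its control mean of 7.76. Of the PJ34 embryos not called, MTM11-1, MTM11-4, MTM13-2 and MTM14-1 had row 2 values from 3.75 to 4.03, and MTM11-3 had 8.59.

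The question of joint variation was put to the 17 embryos with 8 correlations of row 3, adjusted over the 8 by the Benjamini-Hochberg method (permutation tests with 100000 resamples, two-sided). With row 1, Pearson's r was 0.415 (permutation p = 0.0954, adjusted 0.537) and Spearman's rho 0.436 (p = 0.0821, adjusted 0.657). With row 2, r was 0.345 (permutation p = 0.174, adjusted 0.537) and rho 0.213 (p = 0.410, adjusted 0.745). With row 4, r was -0.285 (permutation p = 0.268, adjusted 0.537) and rho -0.287 (p = 0.262, adjusted 0.745). None of the 3 passed.

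The pooled coefficients of rows 1 and 2 were not found within the groups. Among the 10 PJ34 embryos r was 0.15 for row 1 and 0.02 for row 2, and among the 7 control embryos 0.07 and -0.39. After each group was centred on its mean, r was 0.14 and -0.06. Without MTM11-2 and MTM13-3, the embryos farthest from the median of row 3, r was 0.575 for row 1 (permutation p = 0.0262, adjusted 0.210), 0.186 for row 2 and -0.33 for row 4. As a background, the coefficients of row 3 with all other rows of 1 symbol had a median of 0.0042, and 95% of them lay between -0.477 and 0.448, a span that holds all 8. The embryos share sires, and all values come from jointly normalized arrays.

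**Figure D2:**
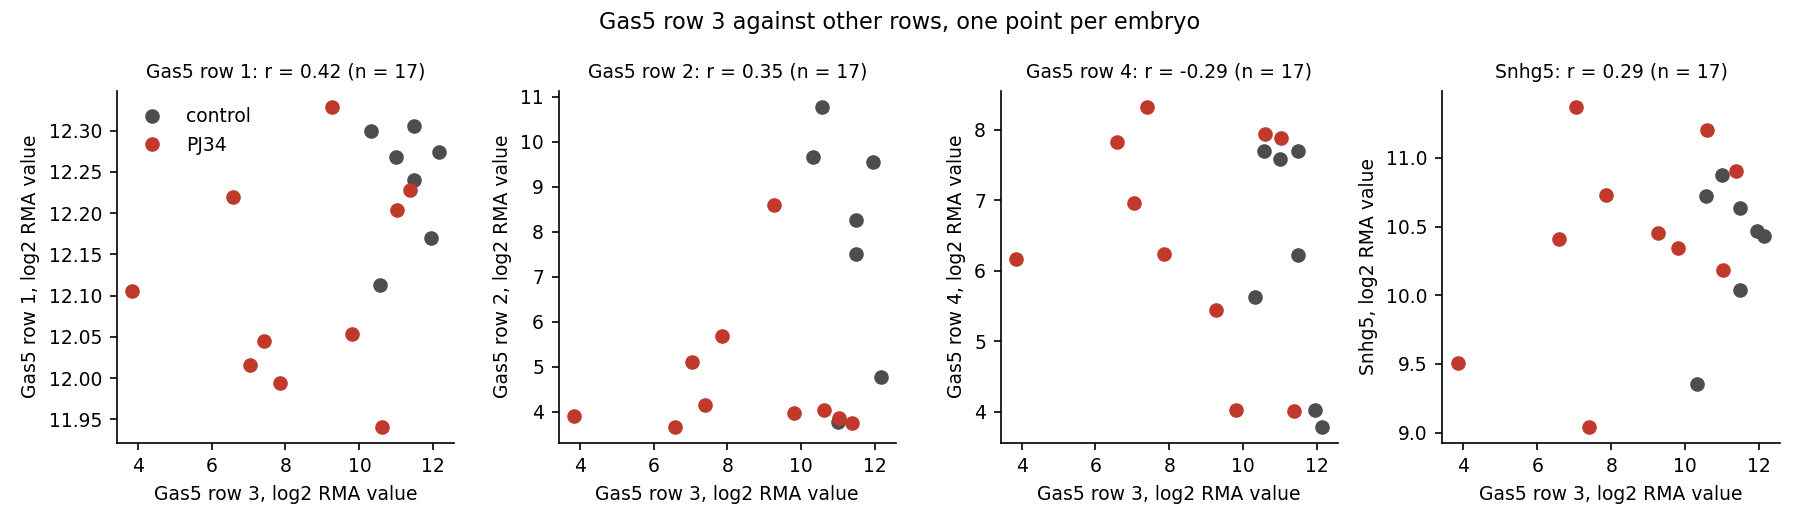
Log2 RMA value of Gas5 row 3 (horizontal axes) against that of Gas5 row 1, row 2, row 4 and Snhg5 (vertical axes, each with its own scale), 1 point per embryo, grey for 7 control and red for 10 PJ34 embryos. For row 3, 7 PJ34 embryos lie below the lowest control embryo. Their row 4 values run from 4.02 to 8.33, and their Snhg5 values reach both ends of its range.

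Snhg5, the host of a pair of snoRNA genes in the gene table, was measured by a row of its own. Control embryos had 10.72 (A), 9.35, 10.87 and 10.64 (B), and 10.04, 10.46 and 10.43 (D), and PJ34 embryos had 11.21, 9.51, 10.46 and 10.90 (MTM11), 10.73, 10.18, 10.41 and 9.04 (MTM13), and 10.35 and 11.37 (MTM14). The groups overlapped over nearly their whole range. The log2 difference was 0.05 with a 95% interval from -0.58 to 0.69 (limma, adjusted p = 0.985), and its sign turned when one of several embryos or sires was left out. The correlation with Gas5 row 3 was 0.286 (permutation p = 0.264, adjusted 0.537; rho 0.145, p = 0.580, adjusted 0.745), with 0.43 among PJ34 and 0.32 among control embryos, and 0.07 without MTM11-2 and MTM13-3. MTM14-2, with row 3 at 7.05, had the highest Snhg5 value of all embryos, and MTM13-4, with row 3 at 7.41, the lowest.

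Snhg11, a host gene known for its expression in neurons, had narrow rows. Row 1 ran from 5.83 to 6.37 (median 6.17) in control and from 5.90 to 6.53 (median 6.29) in PJ34 embryos, a log2 difference of 0.10 (95% interval -0.12 to 0.31; limma, adjusted p = 0.926). Row 2 ran from 6.52 to 6.92 (median 6.65) and from 6.45 to 6.89 (median 6.58), a difference of -0.08 (-0.25 to 0.09; adjusted p = 0.920). The groups overlapped in both rows. Their correlation with each other over the 17 embryos was -0.14, and with Gas5 row 3 they had r of -0.25 and 0.13 (permutation p = 0.338 and 0.619, adjusted 0.540 and 0.621; rho -0.235 and 0.015).

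The row shared by Snhg7 and Snora43, an H/ACA snoRNA of its intron, lay between 6.32 and 6.91 (median 6.74) in control and between 6.17 and 7.31 (median 6.73) in PJ34 embryos. The difference was 0.06 (95% interval -0.21 to 0.34; limma, adjusted p = 0.961), and r with Gas5 row 3 was -0.17 (permutation p = 0.507, adjusted 0.621; rho -0.118).

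The row shared by Snhg8 and Snora24, likewise an H/ACA snoRNA, was near the lower end of the table in most embryos of both groups and high in a few. Control embryos had 9.28 (A), 4.03, 4.10 and 3.99 (B), and 3.88, 7.45 and 3.96 (D). PJ34 embryos had 4.22, 3.98, 3.85 and 4.19 (MTM11), 7.38, 3.73, 3.83 and 3.96 (MTM13), and 4.78 and 3.97 (MTM14). Thus 5 of 7 control and 8 of 10 PJ34 embryos were under 4.42, and the high embryos were A-2, D-2 and MTM13-1. The difference was -0.85 with a wide interval, -2.46 to 0.75 (limma, adjusted p = 0.912). Its r with Gas5 row 3 was 0.13 (permutation p = 0.621, adjusted 0.621; rho 0.123).

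**Figure D3:**
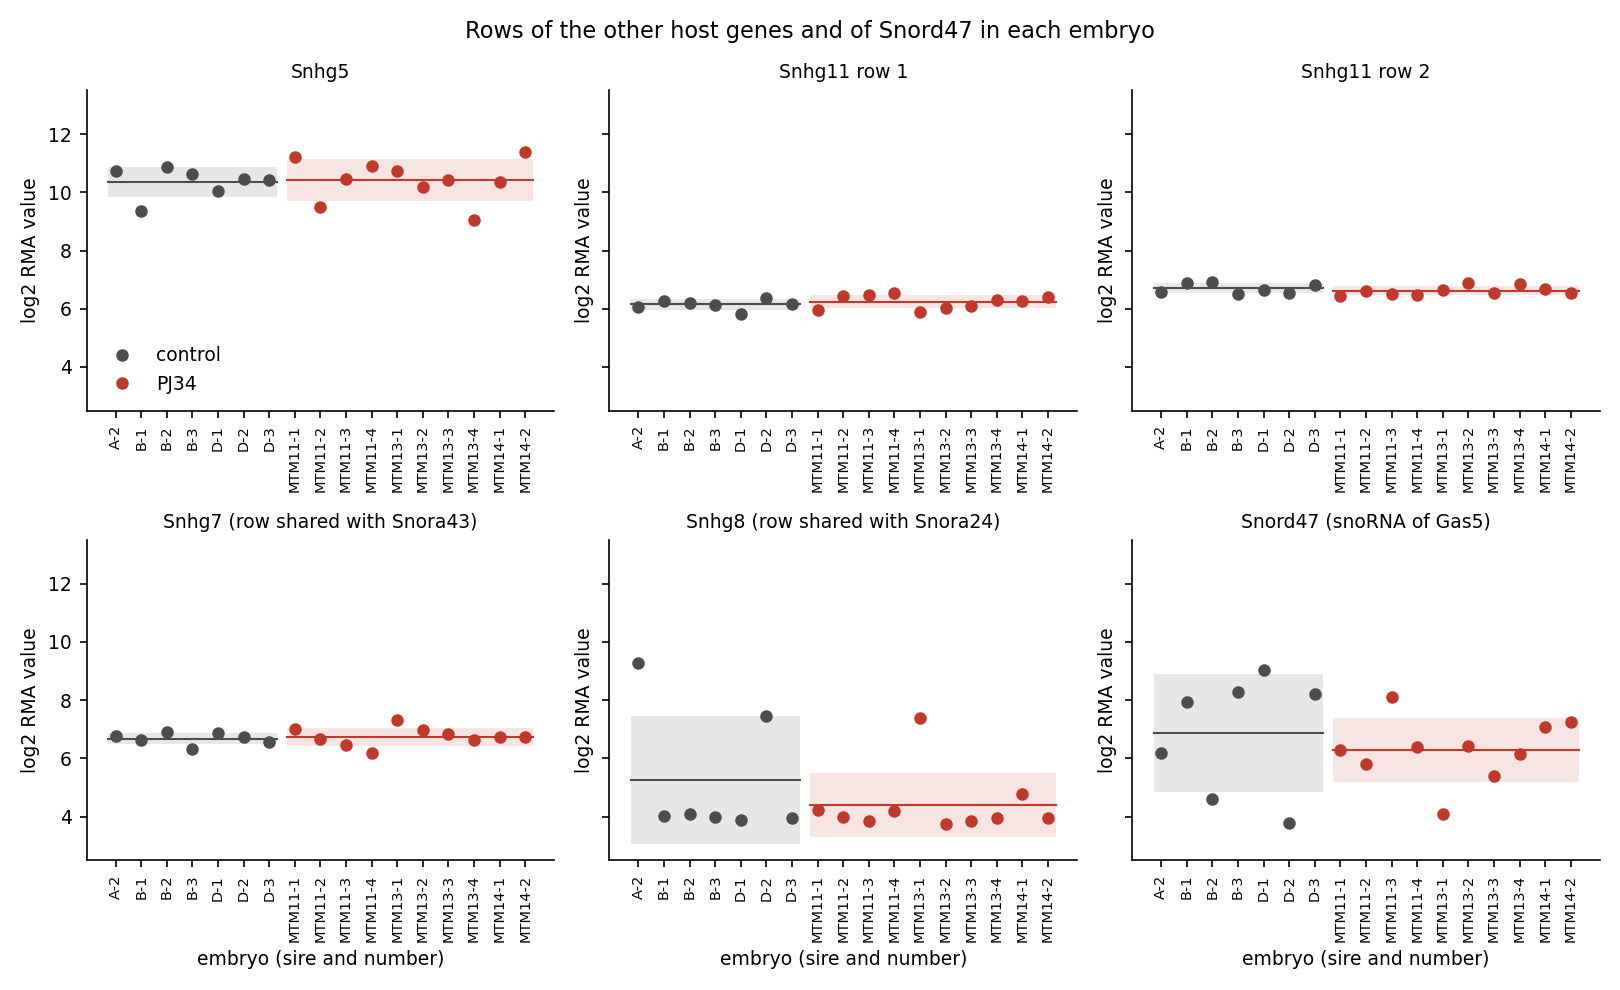
Log2 RMA value (vertical axis) of the 5 rows of Snhg5, Snhg11, Snhg7 and Snhg8 and of the Gas5 snoRNA Snord47 in each of 17 embryos (horizontal axis); points are single embryos, lines are group means and bands are 1 SD. The Snhg11 rows stay within 0.70 and 0.47 log2 units over all embryos, Snhg8 has 3 high embryos out of both groups, and Snord47 spans 3.79 to 9.04.

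Across PJ34 and control embryos as groups, no row of the 21780 with 1 symbol passed an adjusted p under 0.1 (limma; 0% called), Snhg5 and both Snhg11 rows included, and neither did the shared rows of Snhg7 and Snhg8 in the fit over all rows of the table. At an unadjusted p under 0.05, 5.89% of rows with 1 symbol were called, and none of these 5 member rows. The intervals of both Snhg11 rows and of the Snhg7 row leave room for differences of at most 0.34 log2 units, while those of Snhg5 and Snhg8 are wider. Between the 3 PJ34 families no member row outside Gas5 differed (moderated F test, adjusted p of 1.00 for all 5), where 0.0138% of rows with 1 symbol were called. The smallest unadjusted F p of these rows was 0.113, for Snhg11 row 1, so none was under 0.05, as were 4.91% of rows with 1 symbol. For Gas5 row 3, given without a test, the family means are those listed above.

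**Figure D4:**
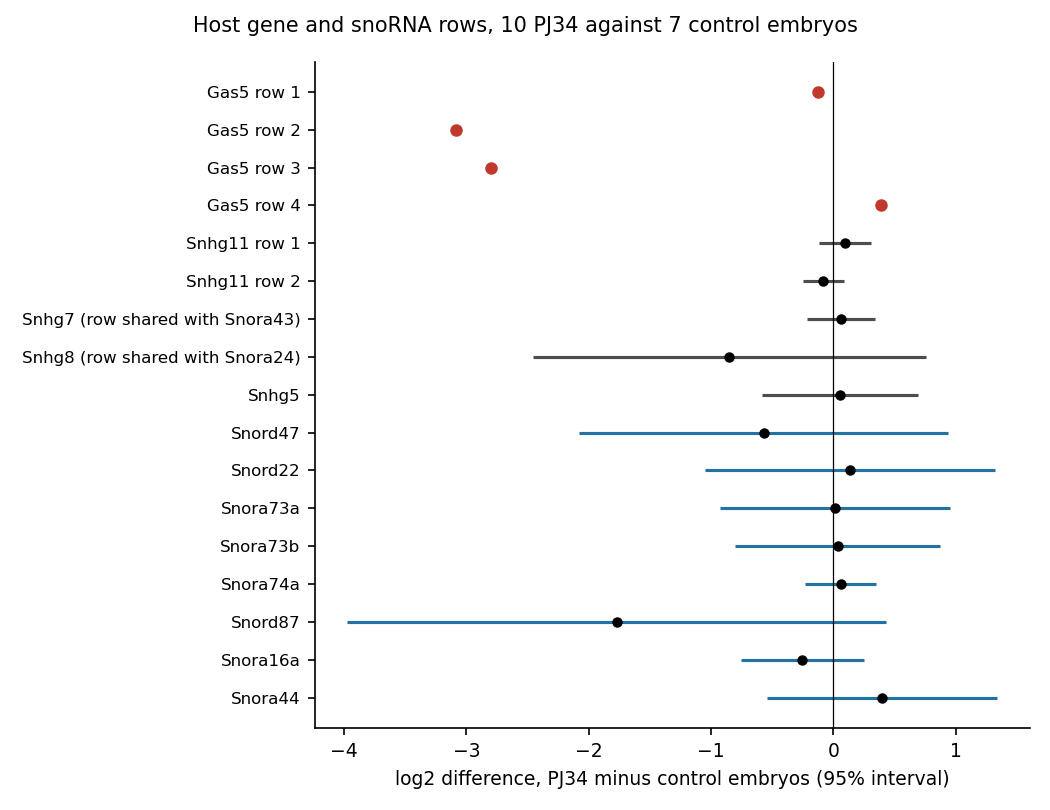
Log2 difference of the PJ34 mean (n = 10) from the control mean (n = 7) on the horizontal axis for the rows of host genes and of their snoRNAs; bars are 95% intervals from limma (grey for host genes, blue for snoRNAs), and the 4 Gas5 rows (red) are drawn without an interval because Gas5 was chosen for these values. Every interval drawn includes 0; the longest among the host genes is that of Snhg8 and among the snoRNAs that of Snord87.

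The snoRNAs carried by the members were looked up by name. Of 33 listed, 8 had a row with that symbol alone, from 6 hosts. They were Snord47 (1 of 10 listed for Gas5), Snord22 of Snhg1, Snora73a and Snora73b of Snhg3, Snora74a of Snhg4, Snord87 of Snhg6, and Snora16a and Snora44 of Snhg12. The SNORD members are of the C/D class and the SNORA members of the H/ACA class.

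Snord47, encoded in a Gas5 intron, had 6.19 (A), 7.94, 4.61 and 8.28 (B), and 9.04, 3.79 and 8.21 (D) in control embryos. In PJ34 embryos it had 6.28, 5.82, 8.09 and 6.39 (MTM11), 4.09, 6.43, 5.39 and 6.14 (MTM13), and 7.08 and 7.25 (MTM14). No PJ34 embryo fell outside the control range. The difference was -0.57 (95% interval -2.08 to 0.94; limma, adjusted p = 0.940), and r with Gas5 row 3 was 0.24 (permutation p = 0.349, adjusted over the 8 snoRNA rows 0.955; rho 0.328). In D-2, where row 3 was at 11.95, Snord47 had its lowest value of all embryos.

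Snord87 was the snoRNA with the largest difference of the 8. It ran from 3.44 to 10.35 (median 7.14) in control and from 3.53 to 8.99 (median 3.98) in PJ34 embryos, and 2 of 7 and 6 of 10 lay under 4.42. The difference was -1.77 with an interval from -3.97 to 0.43 (limma, adjusted p = 0.877). Its r with row 3 was 0.32 over all embryos and 0.78 among the 7 control embryos (exact permutation p = 0.0439, adjusted over the 8 rows 0.351). Among the 10 PJ34 embryos r was -0.02, and after each group was centred on its mean it was 0.12.

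The remaining 6 snoRNA rows had differences from -0.25 for Snora16a to 0.40 for Snora44, with adjusted p (limma) from 0.920 to 0.999. Snora73a and Snora73b, which are near-identical copies and may share signal, were correlated at 0.97 with each other, and differed by 0.01 and 0.03 between the groups. Among the 10 PJ34 embryos Snora16a had r of -0.71 with Gas5 row 3 (permutation p = 0.0235, adjusted 0.188) and rho of -0.52. Over all embryos its r was -0.02, and without MTM11-2 and MTM13-3 it was 0.15. Of the PJ34 embryos, MTM11-2 had both the lowest row 3 value and the highest Snora16a value (6.08).

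Rows of snoRNAs as a class were widely spread on these arrays. This look was made after the values of the Gas5 rows were known and carries no test. Over 17 embryos, the 56 rows with a single snoRNA symbol had a median range of 4.21 log2 units, and 62.5% of them spanned over 4. The other 21724 rows with 1 symbol had a median range of 0.72, and 2.40% of them spanned over 4. The range of Gas5 row 3 (8.29) was above that of the widest snoRNA row (7.72). Those of Gas5 row 2 (7.11), Gas5 row 4 (4.54) and the Snhg8 and Snora24 row (5.55) were above 4 and below that of the widest snoRNA row. The ranges of Gas5 row 1 (0.39), of both Snhg11 rows (0.70 and 0.47) and of the Snhg7 and Snora43 row (1.14) were below 4. Snhg5 had a range of 2.33.

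The share of the 56 snoRNA rows under 4.42 was 14.3% to 26.8% in control and 14.3% to 28.6% in PJ34 embryos. MTM11-2, the embryo with the lowest Gas5 row 3, had the highest share and B-1, a control embryo, the next. MTM13-3, whose row 3 was next lowest, had 16.1%, and MTM14-2 had 14.3%.

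**Figure D5:**
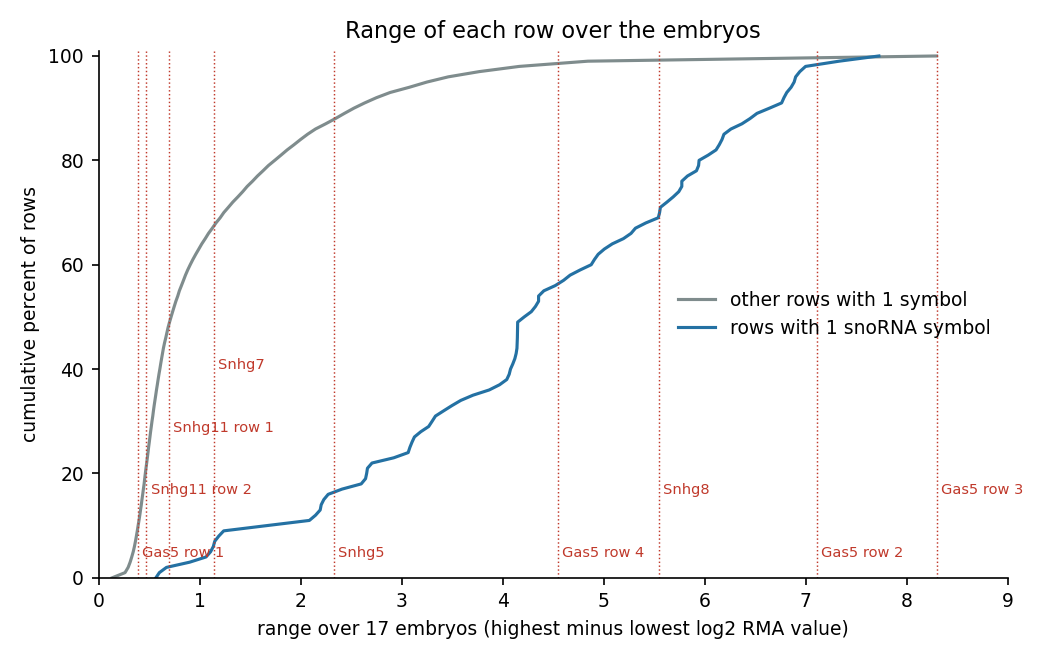
Cumulative percent of rows (vertical axis) against the range over 17 embryos, highest minus lowest log2 RMA value (horizontal axis), for 56 rows with 1 snoRNA symbol (blue) and 21724 other rows with 1 symbol (grey); dotted lines mark the 9 member rows. Gas5 rows 2, 3 and 4 and Snhg8 lie to the right of 4, where few grey rows are found.

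Genes around the hosts were described by lists. Among 107 rows of 28 protein-coding snoRNA hosts, 2 had a higher and 4 a lower PJ34 mean with an unadjusted p under 0.05 (1.96% and 3.93% of all rows did), and none passed after adjustment. The median log2 difference of this list was -0.05, against -0.02 over all rows. Its rows with the smallest p were Rpl7a, a ribosomal protein gene that hosts box C/D snoRNAs (log2 difference 0.87), Hspa8, a heat shock chaperone gene (-0.25), and the ribosomal protein gene Rps3 (-0.47), each with a limma adjusted p of 0.814. Of 6 rows of other noncoding hosts, Rian, at -0.28, was the 1 with an unadjusted p under 0.05. Rian had means of 4.84 in control and 4.56 in PJ34 embryos, near the lower end of the table (4.42).

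Among 22 rows of snoRNA particle proteins, 1 in each direction had an unadjusted p under 0.05 (limma). Of all rows with 1 symbol, 1.96% were higher and 3.93% lower at this threshold. They were Ruvbl1, a helicase that helps assemble the particles (log2 difference 0.37), and Nop56, a core protein of box C/D particles (-0.59). Dkc1, the pseudouridine synthase of H/ACA particles, had 0.32. Of 13 rows of nonsense-mediated decay, which degrades spliced Gas5 RNA, 1 met this threshold, the endonuclease gene Smg6 at -0.38, and Upf2 had -0.18.

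Of 16 rows for TOP RNA control and the mTORC1 kinase, 2 met it, both lower: Larp1, which binds TOP RNAs, at -0.47 and the translation repressor Eif4ebp1 at -0.33. The medians of these 3 lists were -0.08, -0.05 and -0.13. No row of them passed an adjusted p under 0.1 (limma).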

How the data were processed

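RNA of each embryo was amplified over the whole transcriptome and measured on 1 first-generation GeneChip Mouse Gene ST array. The authors deposited log2 RMA values (background correction, quantile normalization, summary of probes per row), made in Partek per the submitters' processing notes; the sources used here give neither software versions nor a genome build. RMA equalizes array distributions, so a shift of all genes would not be seen, and low values have no exact zero. Values were used as deposited.

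Rows were named through the platform annotation: 21780 rows had 1 symbol (21689 matched a RefSeq gene table by gene ID), 1605 several and 5430 none. Tests used limma 3.58.1 in R 4.3.3, two-sided, with Benjamini-Hochberg adjustment over all rows with 1 symbol (all rows for the 2 shared rows) and a threshold of 0.1, as in the methods. Single embryos were compared with the spread of the control embryos, which assumes that a lone embryo varies like a control. Correlations were computed in Python 3.11.15 with scipy 1.17.1. The scripts were tested on simulated data. Embryos were grouped by their labels, and p-values measure the spread between embryos; the number of arrays limits the precision. No 2 embryos had identical values. Alternatives covered the sire as a random block or as means, other row sets, centring, empirical Bayes settings, and leaving out embryos and sires.

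The members and gene lists were chosen with earlier results of these data known. Named genes were all rows of the member symbols, the 8 snoRNA rows, rows from among the 3 with the smallest p of a list, and the rows most like the Gas5 rows. The lists of maternal transcripts, of cumulus cells and of oviduct and blood were given by their means and counts, with no gene named.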

Additional observations from a re-analysis of the deposited data

Results flagged for a closer look

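In 34 groups tested (the member and snoRNA rows, each in control and in PJ34 embryos), 4 held an embryo that stood apart from the rest by its gap to the nearest value, and chance alone flags about 1 in 20 groups. For Gas5 row 2, PJ34 embryo MTM11-3 was at 8.59 and the next PJ34 embryo at 5.69. For the row of Snhg8 and Snora24, PJ34 embryo MTM13-1 was at 7.38 and the next at 4.78. For Snora16a, a snoRNA of Snhg12, control embryo B-2 was at 7.58 and the next control embryo at 5.69, and this embryo was also called higher against the other 6 controls (limma, adjusted p = 0.00267). For the same row, PJ34 embryo MTM11-2 was at 6.08 and the next at 5.65.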

How the results depend on the processing

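No member row outside Gas5 passed the threshold between PJ34 and control embryos, or between families, under any alternative run. A lost call was therefore not possible there. The Gas5 rows carried no test under the alternatives. The log2 difference ran from -3.12 to -2.28 for Gas5 row 3, from -3.78 to -2.58 for row 2 and from -0.15 to -0.09 for row 1. For Gas5 row 4 it turned to -0.13 on sire means, -0.30 without sire D and -0.34 without sire MTM13. For Snhg5 it ran from -0.11 to 0.21 when single embryos were left out, being below 0 without B-1 (-0.11), MTM11-1 (-0.03) or MTM14-2 (-0.05), and was -0.013 without sire MTM11 and -0.056 without sire MTM14. For Snhg7 it was -0.060 without sire MTM13. The PJ34 embryos with a lower call for Gas5 row 3 fell from 5 to 0 when the spread was pooled over control embryos and PJ34 families, and numbered 2 to 5 when single control embryos were left out. The correlation of row 3 with row 2 was -0.060 with groups centred and -0.050 with sires centred. With Snhg11 row 2 it was -0.036 with groups centred and -0.011 without the 2 farthest embryos, and with Snhg8 -0.042 and -0.0058. The cause of these turns was not tested. Of the alternative values, 863 counted as unchanged, 15 reversed and 5 moved. Group differences and correlations counted as unchanged if they kept their direction and side of the threshold. For the Gas5 group differences, which carried no test, the second condition was a shift smaller than the row's SD. Counts did if they stayed close to the count reported. They include 4 in place of 5 embryos called lower for Gas5 row 3 without A-2, or without rows of a mean under 6. Family differences did if they shifted by less than the row's SD, whatever their sign. Some changed sign, such as Snhg8 in MTM13 from -0.515 to 0.158 without sire A. The 17 arrays and 6 sires limit the precision. No paired analysis was possible because the labels number embryos within sires and do not pair control with PJ34 embryos.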

Other observations

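The rows with the profile most like Gas5 row 3 over 17 embryos, among 12569 rows with 1 symbol and a mean of at least 6, were those of Nol10 (r = 0.78), a nucleolar protein gene, Cand1 (0.77), which regulates cullin ubiquitin ligases, Nipbl (0.76), the cohesin loader gene, Cnot8 (0.74), a deadenylase gene, and Ciao2a (0.74). Among the 10 PJ34 embryos their r was 0.72 to 0.81, and among the 7 control embryos -0.12 to 0.43. They are the highest of many coefficients and carry no test. The mean of the other 3 Gas5 rows was most like 4 rows of A530040E14Rik (r = 0.86) and 1 of Zfp640 (r = 0.83). The A530040E14Rik rows fell into pairs with equal r, SD and mean, so they are not 4 separate likenesses. That Gas5 mean mostly follows rows 2 and 4, with SDs of 2.51 and 1.60 over all embryos against 0.12 for row 1.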
